A study of Mus musculus with 2 samples.

Results

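The genes described here are the classical cadherins and the protocadherins, taken as every array probe, control spots aside, whose gene name was Cdh followed by a number or began with Pcdh. The rule used names only and no measured value, but it was chosen with earlier results of these data known. It gave 102 probes of 39429, for 70 genes, of which 23 were Cdh genes, 35 were protocadherins of the alpha, beta and gamma clusters (Pcdha, Pcdhb, Pcdhg) and 12 were other protocadherins. Of the 70 genes, 56 had a probe bright enough to be tested, among 20104 genes tested in all. The 14 that were not tested were Cdh7, Cdh19, Cdh20, Cdh23, Pcdha4, Pcdha11, Pcdha12, Pcdhac1, Pcdhb1, Pcdhb5, Pcdhb8, Pcdhb9, Pcdhb19 and Pcdhga5.

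RNA of dissected mouse ureters at E14.5 (NMRI strain) was hybridised to 2 two-colour arrays, each carrying a labelled knockout and a labelled control sample. The knockout, Smad4cKO (UE), carried a Pax2-cre allele over wild type and 2 floxed Smad4 alleles, Smad4(fl/fl) (the channel labels write Pax-cre), and the control was labelled Smad4(fl/?), a floxed allele with the other not specified. The Cre is driven by Pax2 sequences, and which ureter cells had recombined was not measured here. The samples of replicate 1 were female, with knockout RNA in Cy3, and those of replicate 2 male, with knockout RNA in Cy5, so sex and dye orientation cannot be told apart. Whole ureters were taken, epithelium and surrounding tissue together, and fewer cells of a type and less RNA per cell cannot be told apart in them. The sources used here do not say how many embryos a sample holds, and p-values measure only the spread between these arrays. Over all genes tested, the log2 ratios of knockout over control on the 2 arrays hardly correlated (Pearson r = 0.0168). Smad4 itself read -0.58 on replicate 1 and -0.08 on replicate 2 (log2 of knockout over control), a mean of -0.33 ± 0.36 (SD, n = 2 arrays) with an adjusted p of 1 in limma, so it does not check the labels. Directions follow the dyes in the labels, and the authors' deposited table of signed folds, read in the order of its titles, runs the other way on both arrays.

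Cadherins are calcium-dependent adhesion proteins of the cell surface. Type I cadherins such as E-cadherin and type II cadherins such as VE-cadherin bind the same or a related cadherin on the neighbouring cell and are tied inside the cell to actin by catenins. Protocadherins share the extracellular repeats but not the catenin tail; the clustered ones are switched on through a choice of promoters and are best known from neurons, and the delta protocadherins guide cell sorting and tissue shape. In an embryonic ureter the epithelium is known for E-cadherin, the mesenchyme for cadherin 11 and the vessels for VE-cadherin. SMAD4 is the partner that the receptor-activated SMAD proteins of BMP and TGF-beta signalling share.

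The sequences shown first are those that bear on how far single genes can be read. Probes of the type II cadherins Cdh6, Cdh9 and Cdh10, whose genes all lie on chromosome 15, have long stretches in common. For Cdh9 and Cdh10 these are the probes that were tested. For Cdh6 it is the second probe, and the brighter one that gave Cdh6 its tested value was in no pair this alike. In mm9 they lie at chr15:12963981-12964040 on the minus strand (Cdh6), chr15:16785915-16785974 on the plus strand (Cdh9) and chr15:18943342-18943401 on the plus strand (Cdh10). Capitals mark, in the Cdh6 and Cdh9 probes, the bases the 2 share, and in the Cdh10 probe those it shares with the Cdh9 probe after a shift.
Cdh6: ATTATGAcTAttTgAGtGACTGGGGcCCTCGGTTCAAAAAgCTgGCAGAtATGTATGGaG
Cdh9: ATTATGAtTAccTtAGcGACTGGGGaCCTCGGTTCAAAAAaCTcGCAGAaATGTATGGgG
Cdh10: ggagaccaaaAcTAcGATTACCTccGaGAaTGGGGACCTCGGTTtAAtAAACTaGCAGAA
The Cdh6 and Cdh9 probes share 50 of 60 bases. The Cdh10 probe has the base of the Cdh9 probe at 41 of the 50 positions that overlap, and that of the Cdh6 probe at 35 of 50. Among all 5151 pairs of the 102 probes, the next highest pair outside these 3 genes shares 30 of 60. The probes of the 22 Pcdhb genes, which lie in 1 cluster of closely related genes, share 17 to 29 of 60 bases in their 231 pairs. Whether RNA of 1 of the 3 type II genes binds the probe of another was not tested.

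Cdh22, a type II cadherin first known from pituitary and brain, was lower in labelled knockout on both arrays. Its normalised log2 intensity was 9.38 and 9.41 in the knockout channels (replicates 1 and 2), against 10.42 and 10.50 in the control channels. The knockout channels differed from each other by far less than from the controls. Both knockout values lay below both controls, as for 15.3% of all genes. The log2 ratio of knockout over control was -1.03 on replicate 1 and -1.09 on replicate 2, a mean of -1.06 ± 0.04 (SD, n = 2), that is 2.09-fold lower, with a 95% interval of -1.33 to -0.80 in log2 and an adjusted p of 0.00447 (limma, Benjamini-Hochberg over 20104 genes). It was the only gene of the 56 to pass the adjusted p of 0.05. In simulated data unchanged genes made up more of the calls than that threshold allows, so the adjusted p may be too small. Over all genes, 0.328% passed in either direction and 0.0995% passed with a lower value in labelled knockout. By the size of its mean, Cdh22 stood 12th of the 20 genes called lower in labelled knockout. It was also the only cadherin or protocadherin with a 1.5-fold or greater difference of one sign on both arrays, a size that 0.368% of all genes reached.

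Cdh22 was measured by a single probe, at mm9 chr2:164937057-164937116 on the minus strand; which exon it lies in was not determined here. Its call was lost when arrays were centred on their median in place of loess (-1.04, adjusted p = 1) and when dim probes were kept (-1.06, adjusted p = 0.357). In both cases no gene of the whole array passed.

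The sequence before the start of Cdh22 is given because it was the only member called. From RefSeq (GRCm38.p6), the 250 bases before and the 50 after its start lie at chr2:165234688-165234987 on the minus strand, and the capitals mark CAGAC, the letters of the SMAD box.
Cdh22: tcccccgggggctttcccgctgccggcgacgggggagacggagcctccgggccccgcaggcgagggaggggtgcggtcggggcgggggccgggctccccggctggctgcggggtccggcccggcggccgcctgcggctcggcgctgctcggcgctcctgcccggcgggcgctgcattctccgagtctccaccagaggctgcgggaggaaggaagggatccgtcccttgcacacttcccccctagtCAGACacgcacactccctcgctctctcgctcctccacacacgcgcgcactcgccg
G and C made up 76.3% of these bases, against a median of 52.7% over all promoters of the table. CAGAC, read on both strands, occurred once here, in 14 of the 22 member genes whose promoter the table holds, and in 53.2% of 27025 genes. GGCGCC, a GC-rich SMAD motif, was in 2 of the 22 and 13.4% of genes, and CAGGTG, an E-box, was in 3 of the 22 and 22.6% of genes; neither was in the Cdh22 window. None of the 3 motifs contains another, and a match of letters is no site. No binding was measured in these arrays.

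**Figure D1:**
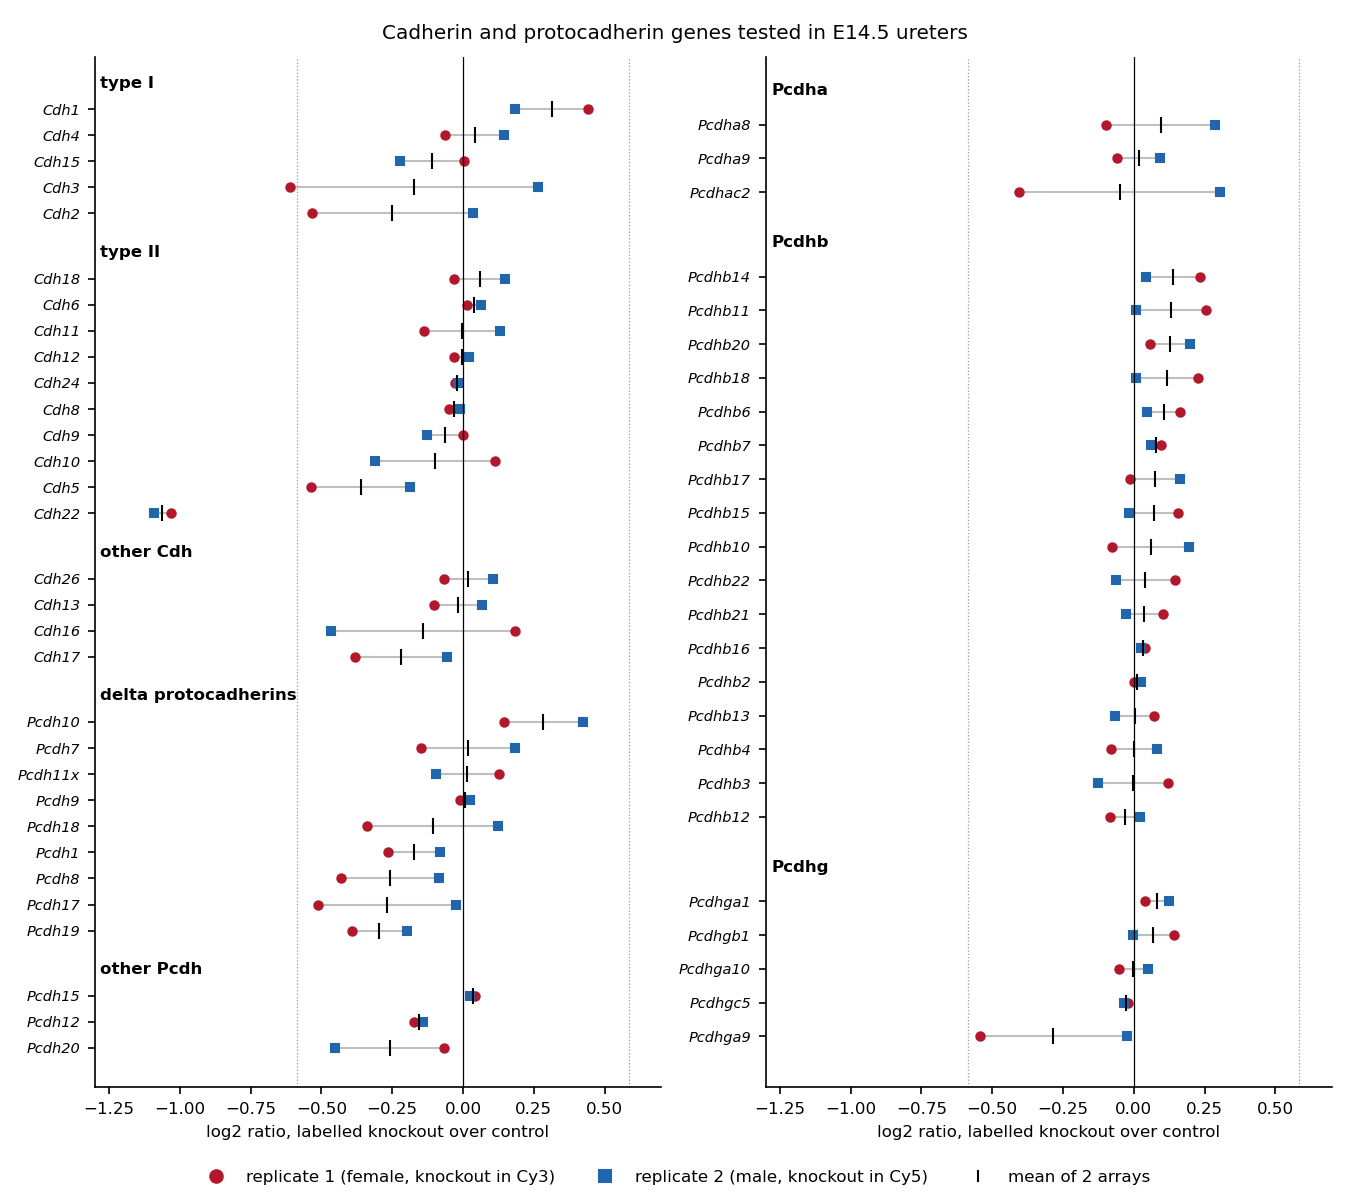
Log2 ratio of labelled knockout over labelled control for each of the 56 tested genes, with replicate 1 as circles, replicate 2 as squares and the mean of 2 arrays as a bar; dotted lines mark 1.5-fold. Cdh22 stands at -1.03 and -1.09, and no other gene is past a dotted line on both arrays.

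Among the type I cadherins all 5 genes were tested and none passed, 1 being above 0 on both arrays and the other 4 having opposite signs. Cdh1 encodes E-cadherin, the adhesion protein of epithelial cells. Its log2 intensity was 13.24 and 12.81 in labelled knockout, against 12.80 and 12.63 in labelled control. Both knockout values lay above both control values, as for 13.9% of all genes, the nearest pair of them (12.81 and 12.80) almost touching. The ratio was 0.44 on replicate 1 and 0.19 on replicate 2, a mean of 0.31 ± 0.18 (SD, n = 2) with an unadjusted p of 0.0313 and an adjusted p of 0.987 (limma).

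Values of 12 epithelial marker genes without Cdh1 stood beside it. Like the other marker lists below, this one was drawn up with earlier results of these data known. All 12 were above 0 on both arrays, as were 21.7% of all genes, with medians of 0.28 on replicate 1 and 0.23 on replicate 2. None of the 12 passed the test. The keratin gene Krt19, with the largest mean, read 0.56 and 0.49 (adjusted p = 0.194). The summed level of the list, as log2 of the sum, was 17.89 and 17.72 in labelled knockout, against 17.67 and 17.60 in labelled control. The part of epithelial share in the Cdh1 value was not tested.

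Cdh2, which encodes N-cadherin of neural and mesenchymal cells, had a log2 intensity of 13.11 and 13.45 in labelled knockout, against 13.64 and 13.41 in labelled control. The control value of replicate 1 was the highest and its knockout value the lowest, so the groups overlapped. The ratio was -0.53 on replicate 1 and 0.03 on replicate 2 (mean -0.25 ± 0.40), and a second Cdh2 probe read -0.54 and -0.03. The 12 neuronal and sympathoadrenal markers all had opposite signs, below 0 on replicate 1 (median -0.45) and above 0 on replicate 2 (median 0.61). Their summed level was 15.42 and 15.74 in labelled knockout, against 15.80 and 15.43 in labelled control. Their part in the Cdh2 value was not tested.

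Cdh3, which encodes P-cadherin of basal epithelial cells, was at 10.32 and 10.63 in labelled knockout, against 10.94 and 10.36 in labelled control. The knockout value was the lower one on replicate 1 and the higher one on replicate 2, the groups overlapped, and the ratios of -0.61 and 0.27 were the widest spread of any member (mean -0.17 ± 0.62). Cdh4, which encodes R-cadherin, was at 10.83 and 10.68 in labelled knockout, against 10.90 and 10.54 in labelled control. Its ratios were -0.06 and 0.15 (mean 0.04 ± 0.15), and a second probe read -0.16 and 0.38. The groups overlapped for Cdh4 too. Cdh15, M-cadherin of muscle cells, was at 8.95 and 8.79 in labelled knockout, against 8.95 and 9.02 in labelled control, with ratios of 0.01 and -0.22 (mean -0.11 ± 0.16). Of the 10 skeletal muscle markers tested, 5 were above 0 on both arrays and 1 below on both, with the embryonic myosin gene Myh3 at 0.99 and 0.01. The medians of these markers were 0.29 and 0.08, and their part in the Cdh15 value was not tested.

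**Figure D2:**
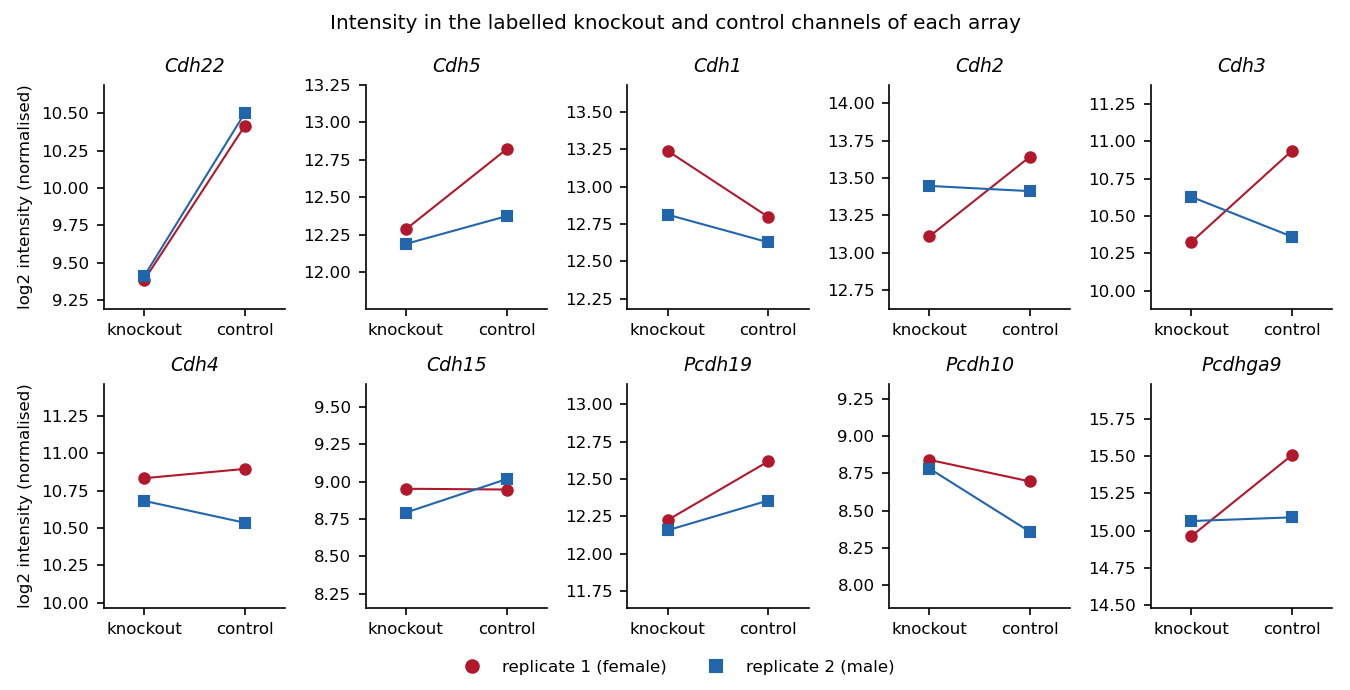
Normalised log2 intensity of 10 named genes in the labelled knockout channel (left) and the labelled control channel (right) of replicate 1 (circles) and replicate 2 (squares); every panel spans the same range of 1.5 log2 units. Cdh22 is at 9.38 and 9.41 in labelled knockout, against 10.42 and 10.50 in labelled control; Cdh1 and Pcdh10 are higher in labelled knockout on both arrays, and the lines of Cdh2 and Cdh3 cross.

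Of the 13 type II cadherins 10 were tested, and Cdh22 alone passed. Without it, the means of the other 9 lay between -0.36 for Cdh5 and 0.06 for Cdh18. Cdh5 encodes VE-cadherin, the junction protein of endothelial cells. Its log2 intensity was 12.29 and 12.19 in labelled knockout, against 12.82 and 12.37 in labelled control. Both knockout values lay below both control values, as for 15.3% of all genes, and the difference on replicate 1 was the larger one. The ratios were -0.54 and -0.19, a mean of -0.36 ± 0.25 (SD, n = 2) with an unadjusted p of 0.0201 and an adjusted p of 0.863 (limma).

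Of 12 other endothelial genes, 6 were below 0 on both arrays and 6 had opposite signs, against 24.6% and 53.7% of all genes. None of the 12 passed. The VEGF receptor gene Flt1 read -0.30 and -0.43 and the other receptor gene Kdr -0.12 and -0.22. The 6 with opposite signs were all above 0 on replicate 1, where Cdh5 was lowest, and below 0 on replicate 2. Among them were Emcn (0.39 and -0.14) and Pecam1 (0.25 and -0.04). The list's median was -0.04 on replicate 1 and -0.17 on replicate 2, and its summed level was 16.52 and 16.35 in labelled knockout, against 16.50 and 16.55 in labelled control. The brightest probe in that sum was Egfl7, at 15.82 and 15.71 in labelled knockout, against 15.74 and 15.88 in labelled control. The part of endothelial share in the Cdh5 value was not tested. Pcdh12, a protocadherin also found in endothelium, was at 12.03 and 11.87 in labelled knockout, against 12.20 and 12.01 in labelled control, with ratios of -0.17 and -0.14 (mean -0.16 ± 0.02, limma adjusted p = 1).

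Cdh9 was at 7.74 and 7.81 in labelled knockout, against 7.74 and 7.94 in labelled control (mean ratio -0.06 ± 0.09). Cdh10, whose probe resembles it, read 0.11 and -0.31. Cdh6, known from the embryonic kidney, read 0.01 and 0.06 from its brighter probe. Its second probe, the one printed above, read -0.06 and -0.13. The 3 alike probes were all below 0 on replicate 2. Cdh11, known from mesenchyme, was at 13.54 and 13.61 in labelled knockout, against 13.67 and 13.48 in labelled control. Its ratios of -0.14 and 0.13 cancelled in the mean, and a second Cdh11 probe read -0.04 and 0.03. The 10 mesenchymal markers had medians of -0.16 and -0.05, with 5 below 0 on both arrays and 1 above.

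The remaining Cdh genes tested were Cdh13, Cdh16, Cdh17 and Cdh26. Cdh16, the kidney-specific cadherin of tubule and duct epithelium, was at 15.30 and 14.86 in labelled knockout, against 15.12 and 15.33 in labelled control. It was higher in labelled knockout on replicate 1 (0.19) and lower on replicate 2 (-0.47). The 7 tested genes of collecting duct and nephron had medians of 0.01 and 0.15, with 5 above 0 on both arrays and 2 below. The water channel gene Aqp3 was 1.97-fold higher (0.88 and 1.08, limma adjusted p = 0.00940). At the other end, the sodium channel subunit gene Scnn1a read -0.68 and -0.67 (limma adjusted p = 0.0546). Aqp2, another water channel gene, read 0.06 and 0.02. The part of these genes' cells in the Cdh16 value was not tested. Cdh17, the liver and intestine cadherin, was at 6.98 and 6.82 in labelled knockout, against 7.36 and 6.87 in labelled control. Its ratios were -0.38 and -0.06 (mean -0.22 ± 0.23), with its knockout channel well above background on 1 of 2 arrays. The Cdh17 mean was -0.57 with processed signals and -0.59 with the deposited values, not called in either. Its probe passed the filter through the control channels alone, so the filter favoured a lower knockout value. A second Cdh17 probe, too dim to be kept, read 0.20 and 0.04. Cdh13, a cadherin without a cytoplasmic tail, averaged -0.02 and Cdh26 averaged 0.02.

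All 9 delta protocadherins were tested, 4 of them below 0 on both arrays (Pcdh1, Pcdh8, Pcdh17 and Pcdh19), 1 above on both (Pcdh10) and 4 with opposite signs. Over all genes these shares were 24.6%, 21.7% and 53.7%. None of the 9 passed, and their medians were -0.26 on replicate 1 and -0.03 on replicate 2, against -0.0093 and -0.0034 for all genes. Pcdh19, which pairs with N-cadherin in the nervous system, was at 12.23 and 12.16 in labelled knockout, against 12.62 and 12.36 in labelled control. Both knockout values lay below both controls, as for 15.3% of all genes. The ratios were -0.39 and -0.20, a mean of -0.30 ± 0.14 (unadjusted p = 0.0363, adjusted p = 1, limma). Pcdh17 was at 11.25 and 11.15 in labelled knockout, against 11.76 and 11.17 in labelled control, with ratios of -0.51 and -0.03 (mean -0.27 ± 0.34). Pcdh8, known from the paraxial mesoderm, read -0.43 and -0.08. For both genes most of the mean came from replicate 1.

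Pcdh10, known as OL-protocadherin, was at 8.84 and 8.78 in labelled knockout, against 8.70 and 8.36 in labelled control. Both knockout values were the higher ones, as for 13.9% of all genes. The ratios were 0.14 and 0.42, a mean of 0.28 ± 0.20 (unadjusted p = 0.0485, adjusted p = 1, limma). The probe used, shown because the ratios of the gene's probes differed in size, spans mm9 chr3:45196739-45203246 on the plus strand, a stretch far longer than its 60 bases.
Pcdh10: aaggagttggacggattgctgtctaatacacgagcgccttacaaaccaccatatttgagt
A second Pcdh10 probe, listed under another transcript of the gene, read 0.02 and 0.12. These ratios were of the same sign but smaller, and the mean over probes was 0.18. Over all members, 10 genes had more than 1 kept probe, and 6 of the 12 further probes had the sign of the brightest one's mean. Where probes disagreed in sign, as for Cdh6, Cdh18, Pcdh7 and Pcdhga9, the means were small or came mostly from 1 array.

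Among the other protocadherins, Pcdh20 was at 7.79 and 7.85 in labelled knockout, against 7.86 and 8.30 in labelled control. Its ratios of -0.07 and -0.45 gave a mean of -0.26 ± 0.27 (adjusted p = 1). Pcdh15, which forms the tip links of hair cells together with Cdh23, was at 6.93 and 6.95 in labelled knockout, against 6.89 and 6.93 in labelled control. Its ratios were 0.04 and 0.03, and its control channel was well above background on 1 of 2 arrays. None of these genes passed.

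In the Pcdhb cluster, 17 of 22 genes were tested and the values were close together. Of the 17, 7 were above 0 on both arrays, none was below 0 on both and 10 had opposite signs. Over all genes these shares were 21.7%, 24.6% and 53.7%. The Pcdhb medians were 0.10 on replicate 1 and 0.02 on replicate 2. The means ran from -0.03 for Pcdhb12 to 0.14 for Pcdhb14, and none passed the test, adjusted or not. Pcdhb14 was at 9.36 and 9.25 in labelled knockout, against 9.13 and 9.21 in labelled control (mean ratio 0.14 ± 0.13). Pcdhb11 was at 7.18 and 7.05 in labelled knockout, against 6.92 and 7.05 in labelled control (0.13 ± 0.17; 0.41 with processed signals, not called). Pcdhb20 was at 10.51 and 10.60 in labelled knockout, against 10.46 and 10.40 in labelled control (0.13 ± 0.10). For these 3 genes and Pcdhb18 both knockout values lay above both controls, as for 13.9% of all genes.

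Of the Pcdha genes 3 of 7 were tested, and each was below 0 on replicate 1 and above 0 on replicate 2. Pcdhac2 read -0.41 and 0.31, and its probe is listed for 4 Pcdha genes in the RefSeq table, so its value is that of a shared part. Its ratios ran in the order of the neuronal markers above, whose part in it was not tested. Pcdha8 read -0.10 and 0.29, from a probe also listed for 4 genes. Pcdhga9 was at 14.96 and 15.06 in labelled knockout, against 15.50 and 15.09 in labelled control. Its ratios were -0.54 and -0.02 (mean -0.28 ± 0.37), its second probe read -0.31 and 0.34, and both probes are listed for 4 Pcdhg genes. The value of replicate 1 made up most of this mean, and the mean over probes was -0.13. Pcdhga1 was at 7.28 and 7.50 in labelled knockout, against 7.24 and 7.37 in labelled control (0.08 ± 0.06), and Pcdhgc5, whose knockout signal exceeded background clearly on 1 of 2 arrays, was at 6.89 and 6.84 there, against 6.91 and 6.87 in labelled control (-0.03 ± 0.01).

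**Figure D3:**
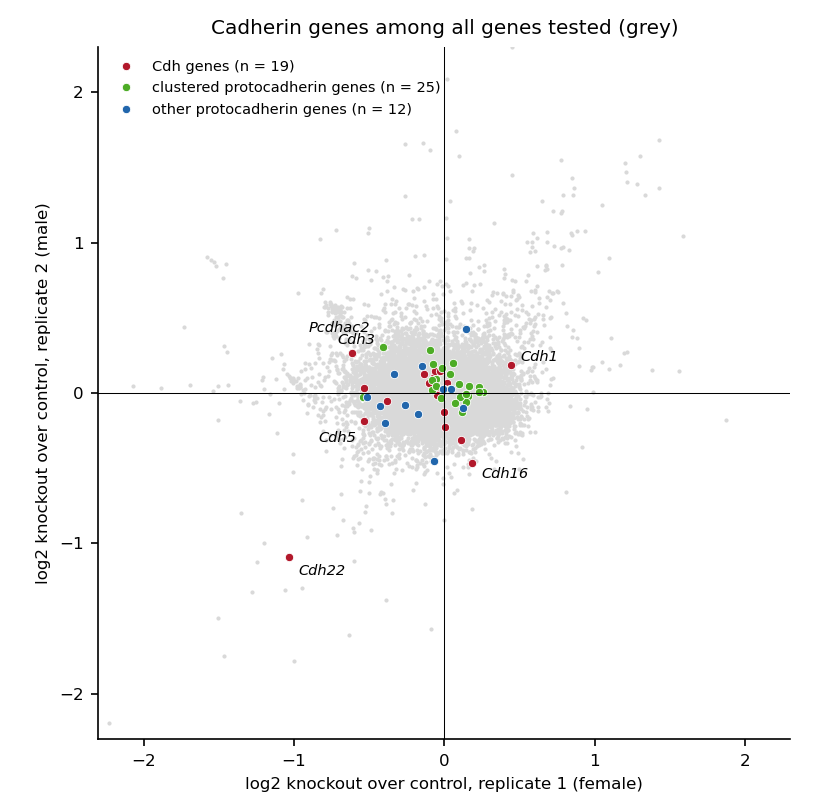
Log2 ratio of labelled knockout over control on replicate 1 (x axis) and replicate 2 (y axis) for 19 Cdh genes, 25 clustered and 12 other protocadherin genes, over all genes tested in grey (1 gene lies outside the range). Cdh22 is the member farthest to the lower left (-1.03 and -1.09); among the clustered protocadherins Pcdhga9 (-0.54 and -0.02) and Pcdhac2 (-0.41 and 0.31) lie farthest to the left.

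Over all 56 genes, 12 were above 0 on both arrays, 14 below 0 on both and 30 of opposite signs, where all genes gave 21.7%, 24.6% and 53.7%. Both knockout values lay above both controls for 7 of the 56 and below both for 6, where all genes gave 13.9% and 15.3%. The median size of the mean log2 ratio was 0.07, against 0.08 for all genes tested. Unadjusted, 5 genes had a p under 0.05 (Cdh22, Cdh5, Cdh1, Pcdh19 and Pcdh10), and 4.55% of all genes did. A difference of at least 1.2-fold was reached by 13 genes on replicate 1 and by 8 on replicate 2. On replicate 1 alone, 2 genes (Cdh22 and Cdh3) were at least 1.5-fold apart, and on replicate 2 Cdh22 alone. No member was 1.5-fold apart in opposite directions, as 0.114% of all genes were.

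The partners of the cadherins gave few values away from 0. Of 20 catenin and other junction genes 19 were tested and none passed, 5 being above 0 on both arrays and 4 below. Ctnnd2, a catenin of the p120 group, read 0.14 and 0.73 (adjusted p = 0.766), and the nectin gene Nectin4 read 0.39 and 0.37 (adjusted p = 0.566). The tight junction scaffold gene Tjp1 read -0.40 and -0.02. Of 12 repressors and activators of cadherin genes 11 were tested and none passed. Grhl1, a grainyhead factor that activates junction genes, read 0.58 on both arrays (adjusted p = 0.131). Ovol1, a zinc finger factor of epithelia, read 0.16 and 0.40, and Twist2, a factor of mesenchyme, read -0.38 and -0.04. The E-cadherin repressor Snai1 read -0.18 and -0.14. These 3 had an adjusted p of 1.

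Of 9 genes of protocadherin promoter choice none passed and none was above 0 on both arrays; the cohesin subunit gene Rad21 read -0.30 and -0.13, and Ctcf, which encodes the DNA-looping protein CTCF, read -0.34 and 0.06. In the wider cadherin superfamily 15 of 18 genes were tested and none passed. The planar polarity pair Fat4 and Dchs1, a receptor and its ligand, read -0.59 and -0.05 for Fat4 and -0.38 and -0.19 for Dchs1. The superfamily's medians were -0.32 on replicate 1 and 0.06 on replicate 2, and 10 of the 15 genes had opposite signs.

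All 10 urothelial genes passed the filter on dim probes, as did all 12 neuronal and sympathoadrenal and all 12 endothelial markers. The uroplakin genes Upk3a, Upk1a, Upk1b and Upk3b, 4 of the 10, were called higher in labelled knockout, as were 0.229% of all genes tested. The largest, Upk3a, read 1.43 and 1.68. The summed level of the 10 was 15.96 and 15.71 in labelled knockout, against 15.60 and 15.32 in labelled control. Of 9 Schwann cell and glial genes 7 were tested and none passed, with medians of -0.03 and 0.00. Of the 10 urothelial genes 7 were above 0 on both arrays, 2 had opposite signs and 1, the signal gene Shh, was below 0 on both, at -0.16 and -0.21. Cdh22 was of the other sign from all 12 epithelial markers and from 7 of the 10 urothelial ones on both arrays. Below 0 on both arrays, like Cdh22, were 5 of the 10 mesenchymal and 6 of the 12 endothelial markers, against 24.6% of all genes. Above 0 on both were 1 mesenchymal and 0 endothelial markers, against 21.7% of all genes. Whether the level of Cdh22 follows any of these cell types was not tested.

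**Figure D4:**
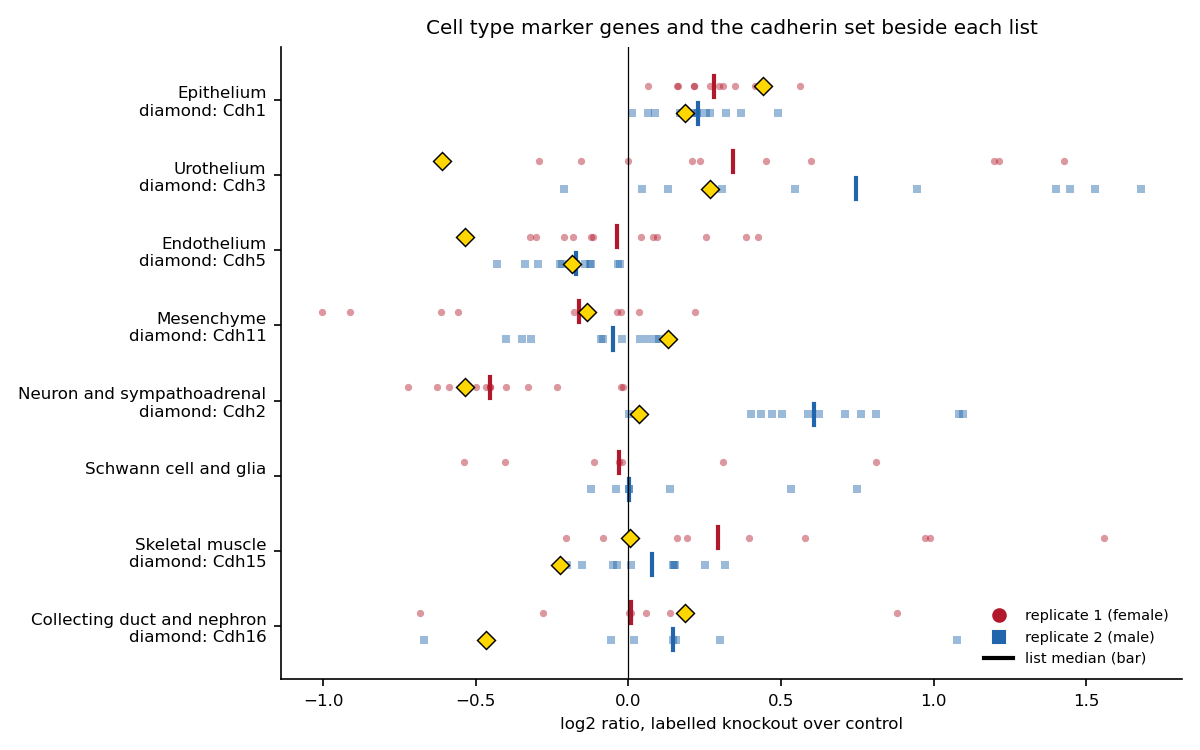
Log2 ratio of labelled knockout over control for the genes of 8 cell type marker lists on replicate 1 (circles) and replicate 2 (squares), with list medians as bars and the cadherin set beside each list as a diamond. Cdh1 lies within its epithelial list on both arrays, Cdh3 lies below every urothelial marker on replicate 1, and the neuronal markers lie left of 0 on replicate 1 and right of it on replicate 2.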

How the data were processed

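Spot intensity, the mean signal and median local background of each channel, came, per the file headers, from version 10.7.3.1 of Agilent Feature Extraction; the deposited processed intensity, background-subtracted and dye-normalised by that software, was an alternative, and the deposited log10 ratio made from it was not used. The authors' deposited score, a signed fold per probe, correlated with knockout over control at -0.822 and -0.739 on the 2 arrays by the labels' dyes and was turned round where used. Both arrays lay on 1 slide.

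Background was corrected by normexp (offset 50) and arrays by loess. Control and outlier spots were left out, and the 4 spots of a probe averaged. A probe was kept where, for 1 genotype or both, 2 or more spots on each array were well above background (26522 of 39429 kept). Cdh17 and Pcdhgc5 were kept through the control channels alone, and Pcdh15 and Pcdhgb1 through the knockout channels alone. For these genes the filter favoured the direction that was read. Between 66.5% and 69.1% of probes were well above background per channel. A gene was its brightest probe, named through RefSeq (GRCm38.p6); coordinates of probes are the array design's (mm9). Channel levels were scaled by Aquantile. Levels of different probes are not comparable. The summed level of a list therefore follows its brightest probes and is set only against the same sum in other channels.

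Ratios were tested against 0, two-sided, with limma 3.58.1 (R 4.3.3), with 1 residual degree of freedom and a prior of 9.21. In simulated data, planted 3-fold changes were recovered and unchanged genes made up more of the calls than the threshold allows. Smaller changes were planted too, and their recovery is not reported here. Figures used matplotlib 3.10.9.

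Members and lists were chosen with earlier results of these data known. Described in full are 21 genes: the type I cadherins, those that passed, and in each subgroup the 3 with the largest mean of one sign on both arrays. Other members are named by their ratios, and up to 4 genes of each partner list by size. Alternatives were no offset, no background correction, processed signals, median centring, Aquantile, 2 other filters, the mean over probes, a prior with trend, unpaired channels, the deposited values and each array alone.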

Additional observations from a re-analysis of the deposited data

Results flagged for a closer look

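The 2 arrays gave opposite signs for 4 of the type I genes named above, and the difference between arrays, which differ in sex and in dye orientation, was not tested. As replicate 2 minus replicate 1 in log2, it was 0.88 for Cdh3 (-0.61 on replicate 1 and 0.27 on replicate 2), 0.57 for Cdh2, 0.21 for Cdh4 and -0.23 for Cdh15. The subgroup medians moved by 0.21 for the type I cadherins, by 0.38 for the Pcdha genes and by 0.09 for the other Cdh genes, again with a sign change between the arrays. Over all genes 53.7% had opposite signs, so a sign change alone is common. The ratios of the 2 arrays had a Pearson r of 0.0168 over all genes tested.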

How the results depend on the processing

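Over all genes 66 were called; 131 were with an offset of 0, 115 without background correction, 194 with processed signals, 156 with a prior with trend, 191 with the deposited values and 26 with unpaired channels and no replicate block. With median centring and without the filter on dim probes limma called 0 genes (347 and 1097 at an unadjusted p under 0.05) and 0 members (1 and 5), where the count of members was otherwise 1. The ratio of Cdh22 lay between -1.17 and -1.04 in 12 settings and was called in 10 of them, with adjusted p from 0.000104 to 0.0124, the highest being that of unpaired channels. The count of members at least 1.5-fold apart ranged from 1 to 2 when one array was left out. With both arrays, none of the 21 genes described in full changed the sign of its mean where it was measured. That was in 12 settings for 17 genes and in 11 for Cdh17, Pcdh15, Pcdhb11 and Pcdhgc5, left out by the stricter filter. Aquantile, the prior with trend and unpaired channels left every ratio as it was, so no sign could change there. The 2 other filters gave the same means for the genes they kept. On each array alone, 19 of the 21 had the sign of their mean. Outside the type I cadherins the genes were chosen with one sign on both arrays, so their agreement was fixed by that choice. Cdh2 and Cdh3 turned on replicate 2, and Cdh4 and Cdh15 on replicate 1. Cdh22 alone was called in any setting. Several means moved by over 1.5 times in size without a call. They ranged from -0.59 to -0.22 for Cdh17, from 0.11 to 0.41 for Pcdhb11, from -0.28 to -0.13 for Pcdhga9, from 0.18 to 0.34 for Pcdh10 and from -0.20 to -0.09 for Cdh15. The ranges were 0.04 to 0.08 for Cdh4, 0.07 to 0.20 for Pcdhga1, 0.01 to 0.17 for Pcdh15 and -0.11 to -0.03 for Pcdhgc5. With 1 array left no test was possible, since no residual degree of freedom remains. The 2 arrays and the prior pooled over genes limit what can be called: a member such as Cdh5, 1.28-fold lower, was not called in any setting (adjusted p from 0.452 to 1). The cause of these moves was not tested.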
